A study of Mus musculus with 21 samples.

Results

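The 43 genes described here serve DNA replication and the step from the G1 to the S phase of the cell cycle. They were chosen as a gene module by symbol, from textbook roles and with earlier results of these data known. Every one of the 43 was found among the 23250 genes of the deposited table. The study treated macrophages grown from the bone marrow of C57BL/6J mice with FcMR, a recombinant protein that joins the Fc region of human IgG1 to the extracellular region of the mannose receptor. The cells had been cultured for 7 days with supernatant of a cell line that makes GM-CSF, a growth factor for myeloid cells, and the series describes them as lacking the mannose receptor. The 7 groups hold 3 libraries each, 21 in all. They are untreated cells (0 h) and, after 4 h, 12 h and 24 h each, cells that received FcMR or an isotype control protein. All groups share the strain, the receptor deficiency and the culture in GM-CSF. No untreated library of a later time is analysed here, so the effect of the control protein and that of time in culture cannot be told apart. The labels do not say whether the 3 libraries of a group came from separate mice or cultures, so p-values measure the spread between these libraries, which may be technical.

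A cell copies its genome once per cycle. In G1 the origin recognition complex, with Cdc6 and Cdt1, loads the MCM helicase on origins; in S phase Cdc45, the GINS complex and Mcm10 help to set the helicase in motion, primase and the DNA polymerases copy the strands around the sliding clamp Pcna, and ribonucleotide reductase supplies the deoxynucleotides. Cyclin E with its kinase, and the E2F transcription factors once the retinoblastoma protein releases them, turn on many of these genes together. Macrophages grown from marrow divide while growth factor is present and leave the cycle as they mature or are activated.

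Because E2F factors are known regulators of this module, the promoters of the members were searched for E2F words. RefSeq promoter windows of build GRCm38.p6, each running from 250 bases before to 50 bases after an annotated transcript start (300 bases), were given for 36 of the 43 members. The words searched were TTTGGCGC, TTTCCCGC, TTTGCCGC and TTTCGCGC on both strands, and matches may overlap one another. At least 1 word was present for 15 of the 36 members (41.7%), against 704 of 27025 genes with a window (2.60%) and 744 of all 32851 windows (2.26%). Of 17 mitosis genes with a window, 1 held such a word (5.88%). The 4 windows shown belong to the members with the largest falls under FcMR, E2f2 and Cdc6, to the member with the most words, Mcm6, and to the 1 member that rose at 24 h, Tyms. Capitals mark the E2F words, and all sequences run 5′ to 3′ on the strand of the gene.
E2f2, chr4:136172024-136172323, plus strand: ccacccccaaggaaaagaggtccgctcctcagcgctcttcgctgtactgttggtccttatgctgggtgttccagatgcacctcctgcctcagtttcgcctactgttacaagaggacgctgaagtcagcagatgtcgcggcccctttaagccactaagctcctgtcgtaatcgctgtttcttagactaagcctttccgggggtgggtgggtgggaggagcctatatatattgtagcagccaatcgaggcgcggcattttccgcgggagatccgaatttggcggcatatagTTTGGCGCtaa
Cdc6, chr11:98907901-98908200, plus strand: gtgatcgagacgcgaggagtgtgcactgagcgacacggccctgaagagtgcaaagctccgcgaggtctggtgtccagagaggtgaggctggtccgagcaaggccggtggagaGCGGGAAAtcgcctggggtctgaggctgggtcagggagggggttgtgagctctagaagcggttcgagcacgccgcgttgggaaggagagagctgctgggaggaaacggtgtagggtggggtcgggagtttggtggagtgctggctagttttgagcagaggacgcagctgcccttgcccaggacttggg
Mcm6, chr1:128359656-128359955, minus strand: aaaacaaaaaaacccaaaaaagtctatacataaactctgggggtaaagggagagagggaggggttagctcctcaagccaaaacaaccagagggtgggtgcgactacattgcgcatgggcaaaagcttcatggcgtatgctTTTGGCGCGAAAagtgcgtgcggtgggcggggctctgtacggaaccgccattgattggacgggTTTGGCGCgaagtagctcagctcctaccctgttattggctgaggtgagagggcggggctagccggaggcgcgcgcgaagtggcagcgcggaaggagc
Tyms, chr5:30073576-30073875, minus strand: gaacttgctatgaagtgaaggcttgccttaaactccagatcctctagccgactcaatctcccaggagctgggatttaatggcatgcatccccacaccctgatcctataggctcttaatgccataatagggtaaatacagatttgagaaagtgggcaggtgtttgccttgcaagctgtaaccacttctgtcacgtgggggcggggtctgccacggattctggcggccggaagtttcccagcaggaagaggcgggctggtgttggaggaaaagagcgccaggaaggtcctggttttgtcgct

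In the GENCODE annotation of GRCm38, E2f2 lies on chromosome 4 at 136172394 to 136196057, Cdc6 on chromosome 11 at 98907801 to 98923940 and Mcm6 on chromosome 1 at 128331590 to 128359664, none overlapping another gene. Counted from the RefSeq transcript start, the word begins 39 bases after it in the E2f2 window and 138 bases before it in that of Cdc6. In the Mcm6 window the words begin 110, 106 and 47 bases before the RefSeq start. For E2f2 and Cdc6 this start differs from the GENCODE gene start. The E2f2 window ends at 136172323, before the GENCODE gene, and the Cdc6 window opens at 98907901, inside it. A second E2f2 window, at 136180532 to 136180831, and the Tyms window held no such word. A word was found for 8 of 19 members that fell under FcMR at 24 h (42.1%) and for 7 of 16 that were not called (43.8%). The word TTTGAA, part of the element known from promoters of mitosis genes, was found for 4 of 36 members (11.1%), for 20.2% of all genes and for 12 of the 17 mitosis genes (70.6%). A match describes the letters of a window and is not a bound site.

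Several facts of the whole series touch these results. Library totals ran from 5532225 to 66729533 estimated counts, a 12.1-fold range, so that 3 counts correspond to 0.045 to 0.542 CPM, the count scaled to library size. Such floors cover counting error only. Mrc1, the gene of the mannose receptor, had 0 to 11 counts per library. Libraries of 1 group differed in the level of GC-rich against GC-poor genes, given here as a GC tilt on the log2 scale. The tilt was −0.85, −1.65 and 0.66 in the isotype libraries of 4 h, −0.75, 0.75 and 0.84 in the FcMR libraries of 12 h, −0.37, −1.32 and 0.43 in the FcMR libraries of 24 h, and −0.10, −0.05 and −0.08 in the isotype libraries of 24 h. FcMR 12 h replicate 1 and isotype 4 h replicate 3 carry each other's place in the order of library numbers, and each has the tilt that the rest of its own group lacks. The 7 macrophage markers summed to 19743 to 35181 CPM over all libraries, while the T or NK cell markers reached at most 1.30 CPM. Markers of granulocyte precursors, cells that divide, summed to 19.3 to 36.1 CPM in untreated libraries and to 0.322 to 1.42 CPM in the isotype libraries of 24 h.

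Against the isotype control, 11 of the 43 genes were lower under FcMR at 12 h and 22 at 24 h. The largest fall at both times was that of E2f2, the gene of an E2F transcription factor. A gene was called at an edgeR adjusted p under 0.05 over the 13468 genes tested, with the replicate number in the model, and all 43 members passed the expression filter. At 4 h, 5 members were called, 2 higher and 3 lower, against 18.9% of all genes, 9.29% higher and 9.58% lower. At 12 h, 13 were called, 2 higher and 11 lower, against 17%, 8.94% and 8.06% of all genes. At 24 h, 23 were called, 1 higher and 22 lower, against 21.6%, 11.7% and 9.95%. The median log2 fold change of the 43 was −0.19, −0.44 and −0.59 at the 3 times, and that of all genes −0.05, −0.02 and 0. Fold changes lay below 0 for 31, 35 and 41 of the 43 members. The 3 FcMR libraries lay below the 3 isotype libraries for 8 members at 4 h, 22 at 12 h and 29 at 24 h, where this held for 16.2%, 17.9% and 16.6% of all genes. They lay above for 3, 3 and 1 members, against 13.5%, 17.5% and 17.8%. In bulk libraries, fewer cells in S phase and less RNA of these genes per cell cannot be told apart.

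Of the 23 members called at 24 h, 10 had also been called at 12 h, each in the same direction at both times: Mcm2, Mcm7, Cdc45, Mcm10, Pcna, Rfc5, Rrm2, Tk1 and E2f2, all lower, and Tyms, higher. A further 13 were called at 24 h alone. Gins2, Pola1 and Pola2 were called at 12 h alone, and Pole, Pole2 and Ccne1 at 4 h alone. Only Mcm10 and Pcna were called at all 3 times, and Mcm10 with opposite signs. At no time were 14 members called, among them E2f1, Cdt1 and Slbp. With RLE scaling the split at 4 h was 3 higher and 2 lower. The count at 4 h fell to 1 without FcMR 4 h replicate 2 or without isotype 4 h replicate 2, to 2 without FcMR 4 h replicate 1, and to 3 without isotype 4 h replicate 3 or without the replicate block. At 24 h it fell to 15 without isotype 24 h replicate 1, and was 26 (25 lower) without both libraries out of numbering order. At 12 h that last setting gave 11 (9 lower).

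**Figure D1:**
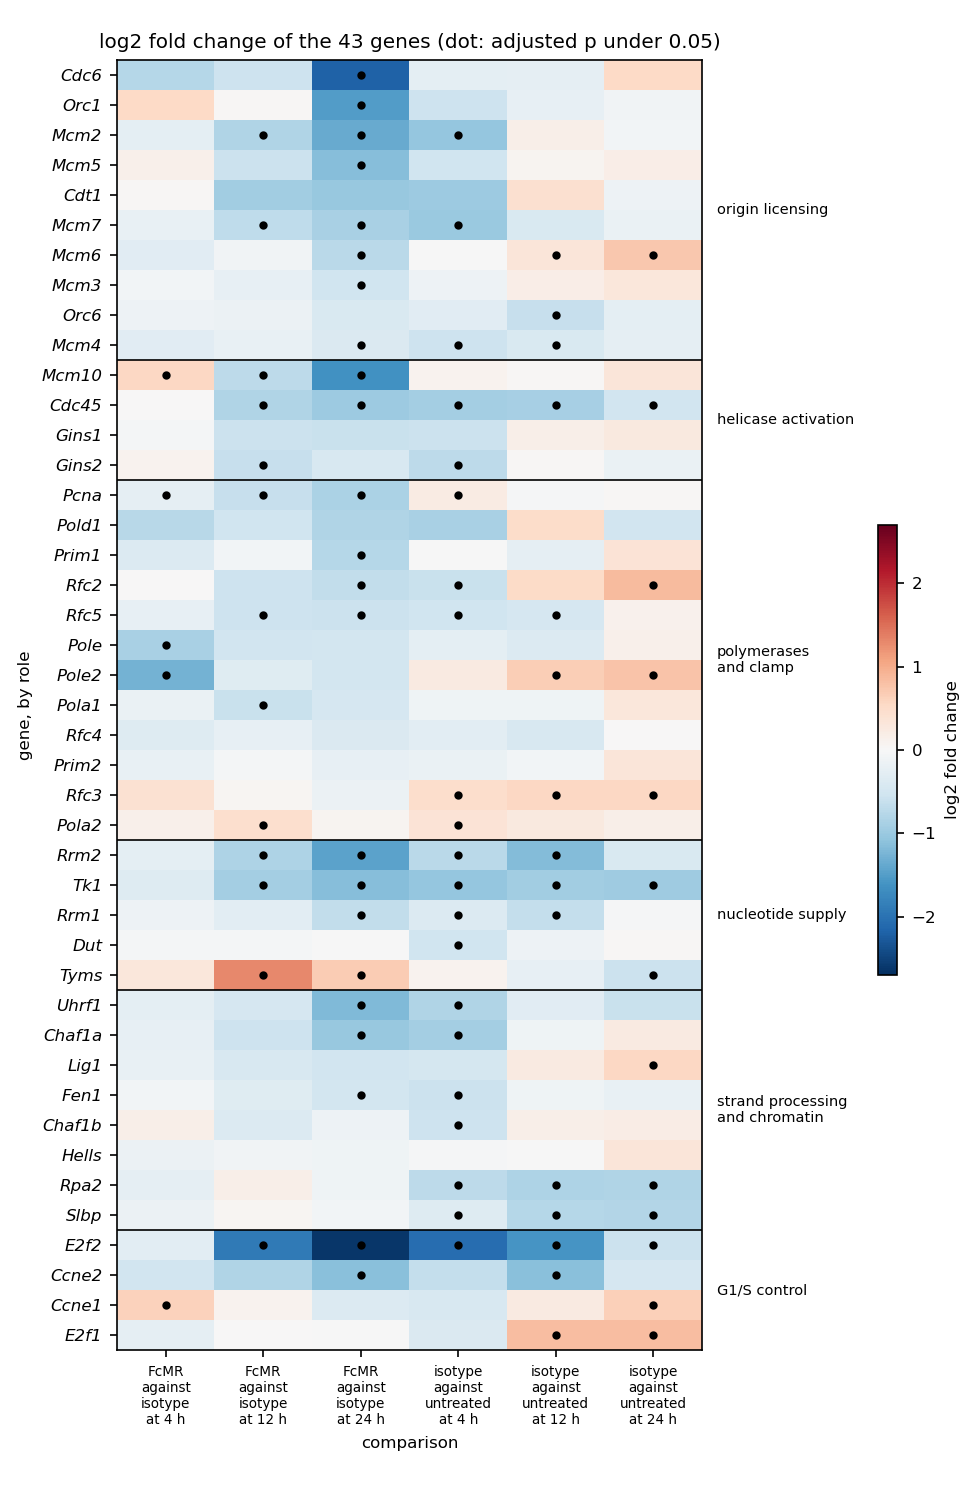
Log2 fold change of each of the 43 genes (rows, grouped by role and ordered by the change under FcMR at 24 h) in 6 comparisons (columns), on a colour scale from blue (lower) to red (higher); dots mark an edgeR adjusted p under 0.05. The column for FcMR against isotype at 24 h holds 22 blue and 1 red cell with a dot, the red one being Tyms.

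The origin licensing genes fell most evenly: at 24 h, 8 of the 10 were called and all 8 were lower, and their median log2 fold change was −0.95. At 12 h only Mcm2 and Mcm7 were called, and at 4 h none of the 10. Cdc6, the ATPase that brings the MCM helicase to the origin, stood at 1.13, 1.03 and 0.732 CPM in the FcMR libraries of 24 h and at 5.98, 3.65 and 3.86 CPM in the isotype libraries (replicates 1 to 3). Each FcMR library was thus well below each isotype library, and the log2 fold change was −2.19 (SE 0.265, edgeR adjusted p 1.50e-05). At 12 h Cdc6 was at 2.27, 1.57 and 1.46 CPM against 3.48, 2.20 and 2.10 CPM, the groups overlapped, and the change of −0.56 was not called (adjusted p 0.142). Cdc6 was in the main fit the 1 member whose FcMR effect differed between 12 h and 24 h, by −1.63 (SE 0.359, edgeR adjusted p 0.0235). This is 2.33% of the members, near the share of all genes, of which 2.12% were called and 0.839% in that direction. The Cdc6 call was lost without the replicate block and when any of 10 of the 12 libraries was left out.

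Orc1, the largest subunit of the origin recognition complex and the member with the lowest level per transcript length in untreated cells, read 0.514, 0.514 and 0.122 CPM under FcMR and 1.57, 1.18 and 0.772 CPM under isotype at 24 h. The groups did not overlap (−1.50, SE 0.390, edgeR adjusted p 0.0106), but the call was lost without isotype 24 h replicate 1 (adjusted p 0.0521). These levels rest on few counts: 5, 14 and 1 under FcMR and 16, 11 and 6 under isotype. In FcMR 24 h replicate 3 the level lay under the 0.377 CPM that 3 counts give there. With only the libraries of the groups compared, Orc1 was not among the genes tested. Mcm2, a helicase subunit, had 6.48, 5.04 and 6.46 CPM under FcMR and 17.9, 15.01 and 12.7 CPM under isotype. It fell by 1.36 at 24 h (SE 0.203, adjusted p 1.14e-04) and by 0.80 at 12 h (SE 0.191, adjusted p 0.00724) on the log2 scale. Mcm5 fell by 1.14 at 24 h, from 31.6, 25.4 and 19.9 CPM under isotype to 12.1, 8.01 and 15.2 CPM under FcMR. Mcm6, also a helicase subunit, had risen under isotype by 24 h to 58.5, 51.8 and 44.9 CPM, from 32.3, 33.7 and 27.0 CPM in untreated cells, while the FcMR libraries of 24 h held 32.3, 34.4 and 26.4 CPM. Its fall under FcMR against isotype was 0.74 (SE 0.123, adjusted p 3.62e-04), and the FcMR libraries overlapped the untreated range.

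The smallest change among the called licensing genes was that of Mcm4, which fell by 0.39 (SE 0.0997) from 28.7, 25.8 and 23.9 CPM under isotype to 21.5, 20.3 and 18.2 CPM under FcMR. Mcm3 fell by 0.53 and Mcm7 by 0.87. Orc6 (−0.41, adjusted p 0.118) and Cdt1 (−1.02, adjusted p 0.0917) were not called, although neither overlapped between the groups. Cdt1, the other loader of the helicase, has a transcript of 58.8% GC, and its levels varied within groups: 2.15, 3.79 and 6.95 CPM in the isotype libraries of 4 h and 3.01, 7.77 and 7.58 CPM in the FcMR libraries of 12 h. In the FcMR group the library out of numbering order is the one that differs. In the isotype group that library is the highest, and the other values differ from each other too.

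Among the helicase activation genes Mcm10 showed the clearest turn with time. Mcm10 is a scaffold at the replication fork. At 4 h it was higher under FcMR, with 9.99, 8.54 and 5.40 CPM against 6.03, 5.41 and 4.63 CPM under isotype (0.57, SE 0.185, edgeR adjusted p 0.0421), though replicate 3 of FcMR lay among the isotype values. That early call was lost in 7 of 15 alternatives, the fit without the replicate block among them (adjusted p 0.125). At 12 h Mcm10 was lower, at 3.23, 2.71 and 3.21 CPM against 5.83, 5.13 and 4.38 CPM (−0.71, adjusted p 0.0115, and 0.0677 without the replicate block). By 24 h the FcMR libraries held 2.57, 1.87 and 1.71 CPM and the isotype libraries 8.83, 5.36 and 4.89 CPM, a change of −1.63 (SE 0.197, adjusted p 1.43e-05). Replicate 1 was the highest of its group in all 6 of these groups.

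Cdc45, which travels with the helicase, fell at 12 h from 4.15, 4.40 and 3.86 CPM to 2.50, 2.27 and 2.23 CPM (−0.82, adjusted p 0.00617) and at 24 h from 6.77, 4.50 and 4.89 CPM to 3.29, 2.90 and 1.95 CPM (−0.98, adjusted p 0.00151). Of the GINS genes, Gins2 fell at 12 h (−0.62, adjusted p 0.0193) and was at −0.43 at 24 h, not called. Gins1 was called at no time, with −0.59 at 12 h and −0.59 at 24 h and standard errors of 0.334 and 0.349. The 4 genes gave 3 calls at 12 h, all lower, and 2 at 24 h, both lower.

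The polymerase and clamp genes moved less, with 4 of 12 called at 24 h, all lower, and a median log2 fold change of −0.49. Those 4 are 33.3% of this role, against 21.6% of all genes called and 9.95% called lower. Pcna, the sliding clamp, had by far the highest level of the module per transcript length, 156 CPM per kilobase in untreated cells against 23.4 for Slbp, the next member. Its libraries varied little: 146, 149.6 and 156 CPM under FcMR and 228, 225 and 246 CPM under isotype at 12 h, and 121, 147 and 132 CPM against 248, 234 and 247 CPM at 24 h. Pcna fell by 0.63 (SE 0.0734, edgeR adjusted p 1.47e-05) at 12 h and by 0.86 (SE 0.0739, adjusted p 3.84e-07) at 24 h. The isotype libraries of both times lay within 224.6 to 248 CPM, close to the untreated 245, 225 and 242 CPM. The smaller fall at 4 h (−0.25, adjusted p 0.0244) was lost in 11 of 15 alternatives, RLE scaling and GC correction among them.

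Rfc5, a subunit of the clamp loader, fell at both 12 h (−0.55, adjusted p 0.00282) and 24 h (−0.59, adjusted p 0.00125), with 15.9, 15.7 and 14.8 CPM under FcMR and 24.3, 24.3 and 21.1 CPM under isotype at 24 h. Of the other clamp loader genes, Rfc2 fell at 24 h (−0.66, adjusted p 0.0314), and Rfc3 and Rfc4 were called at no time. Primase subunit Prim1 fell at 24 h (−0.77, adjusted p 0.0234), while its partner Prim2 did not pass at any time. Pola1, the catalytic subunit of polymerase alpha, fell at 12 h (−0.60, adjusted p 0.0245). Its partner Pola2 went the other way at that time: 18.5, 20.4 and 22.1 CPM under FcMR against 15.8, 13.1 and 15.6 CPM under isotype (0.45, adjusted p 0.0274), without overlap. By 24 h the Pola2 groups overlapped (0.06).

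At 4 h the lower calls were Pcna, Pole and Pole2. Pole and Pole2 encode subunits of polymerase epsilon, which copies the leading strand. The subunit Pole2 was at 1.42, 1.54 and 0.932 CPM under FcMR and 3.59, 3.07 and 3.13 CPM under isotype at 4 h, a log2 fold change of −1.27 (SE 0.204, adjusted p 3.97e-04), and the catalytic subunit Pole changed by −0.88 (SE 0.237, adjusted p 0.016, and 0.0578 without the replicate block). At 24 h the values were −0.49 and −0.49, and neither was called. Pole overlaps a processed pseudogene and a snoRNA gene on its own strand and Pole2 another protein-coding gene, and each overlaps an antisense gene, so their counts are less certain. Pold1, the catalytic subunit of polymerase delta, has the most GC-rich transcript of the module (61.2%) and standard errors of 0.545 to 0.644 on the log2 scale. Its isotype libraries of 4 h held 2.58, 1.26 and 11.5 CPM and its FcMR libraries of 12 h 3.16, 11.3 and 12.4 CPM, and again the library out of numbering order differed. Pold1 was called in none of the 3 comparisons.

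In nucleotide supply, the genes of the deoxynucleotide pathway split. Rrm2, a small subunit of ribonucleotide reductase, was at 5.80, 4.10 and 5.29 CPM under FcMR and 10.1, 9.83 and 7.93 CPM under isotype at 12 h. By 24 h the values were 6.58, 5.70 and 5.12 CPM and 18.8, 16.5 and 12.2 CPM. The FcMR libraries were below the isotype libraries at both times, with falls of 0.84 (adjusted p 0.0112) and 1.45 (SE 0.218, adjusted p 1.26e-04). The large subunit Rrm1 fell at 24 h alone (−0.66, adjusted p 0.00105). Tk1, the thymidine salvage kinase, fell at 12 h from 12.9, 12.3 and 11.8 CPM to 5.72, 6.99 and 6.65 CPM (−0.93, adjusted p 1.96e-04) and at 24 h from 12.8, 13.1 and 10.2 CPM to 6.27, 4.63 and 5.49 CPM (−1.16, adjusted p 2.70e-05). Dut, the dUTPase, stayed close to isotype, with log2 fold changes between −0.05 and −0.01.

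Tyms, the enzyme that makes thymidylate, was the 1 member that rose at 24 h. At 12 h it stood at 20.6, 23.9 and 22.8 CPM under FcMR and 8.24, 10.9 and 8.62 CPM under isotype, a rise of 1.30 (SE 0.175, edgeR adjusted p 6.21e-05) that was called under every alternative. All 3 FcMR libraries of 12 h were above every other library of the series, untreated ones (13.8, 9.38 and 8.99 CPM) included. At 24 h the values were 11.1, 14.3 and 9.02 CPM and 8.24, 6.43 and 6.69 CPM, still without overlap (0.69, adjusted p 0.0125). This later call was lost without FcMR 24 h replicate 2 and without isotype 24 h replicate 2, with adjusted p up to 0.0957. Tyms lies on chromosome 5 at 30058202 to 30073617 (GRCm38), on the minus strand, and overlaps no other annotated gene.

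Strand processing and chromatin genes gave 3 calls of 8 at 24 h, all lower, and none at 4 h or 12 h. Those 3 are 37.5% of this role, against 21.6% of all genes called and 9.95% called lower. Uhrf1, which carries DNA methylation to the new strand, was at 4.21, 4.12 and 7.19 CPM under FcMR and 15.3, 10.9 and 8.50 CPM under isotype (−1.18, SE 0.302, adjusted p 0.00951). Chaf1a, a subunit of the factor that places histones on new DNA, fell by 1.03 (SE 0.210, adjusted p 0.00185), from 14.3, 10.9 and 8.50 CPM to 6.68, 4.67 and 5.24 CPM. Its partner Chaf1b was at −0.14 and not called. Fen1, the flap nuclease, fell by 0.50 with an adjusted p of 0.0485, and that call was lost in 8 of 15 alternatives. The DNA ligase Lig1 (−0.51, adjusted p 0.0652) was not called. Rpa2, Hells and Slbp had log2 fold changes of −0.11, −0.12 and −0.07 at 24 h.

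The G1/S control genes held both the largest fall and a gene that hardly moved. E2f2, an activating E2F factor, stood at 1.98, 2.10 and 1.99 CPM under FcMR and 9.03, 7.04 and 6.95 CPM under isotype at 12 h, and at 2.36, 2.10 and 3.17 CPM and 16.1, 15.5 and 14.3 CPM at 24 h. At 24 h it was 6.15-fold lower under FcMR (−2.62, SE 0.172, edgeR adjusted p 1.96e-08) and at 12 h 3.77-fold lower (−1.92, SE 0.172, adjusted p 9.72e-07). Both calls held under every alternative. At 4 h the groups overlapped, at 5.17, 3.72 and 5.22 CPM and 4.88, 5.05 and 6.72 CPM. E2f1, the related activator, was at 24.5, 16.98 and 28.5 CPM under FcMR and 22.9, 21.98 and 24.7 CPM under isotype at 24 h (−0.02, SE 0.245). Its FcMR libraries of 12 h ranged widely, at 14.3, 27.2 and 28.4 CPM, and its transcript is GC-rich (58.1%).

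The 2 E cyclins took different courses. Ccne2 was at 2.67, 3.67 and 1.71 CPM under FcMR and 8.34, 4.93 and 4.89 CPM under isotype at 24 h and fell by 1.12 (SE 0.287, adjusted p 0.00971). Ccne1 was higher under FcMR at 4 h, at 8.43, 9.93 and 7.45 CPM against 6.32, 5.05 and 5.45 CPM (0.62, SE 0.171, adjusted p 0.0178). By 24 h its FcMR libraries lay below the isotype libraries (−0.37, adjusted p 0.114), a difference that was not called.

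**Figure D2:**
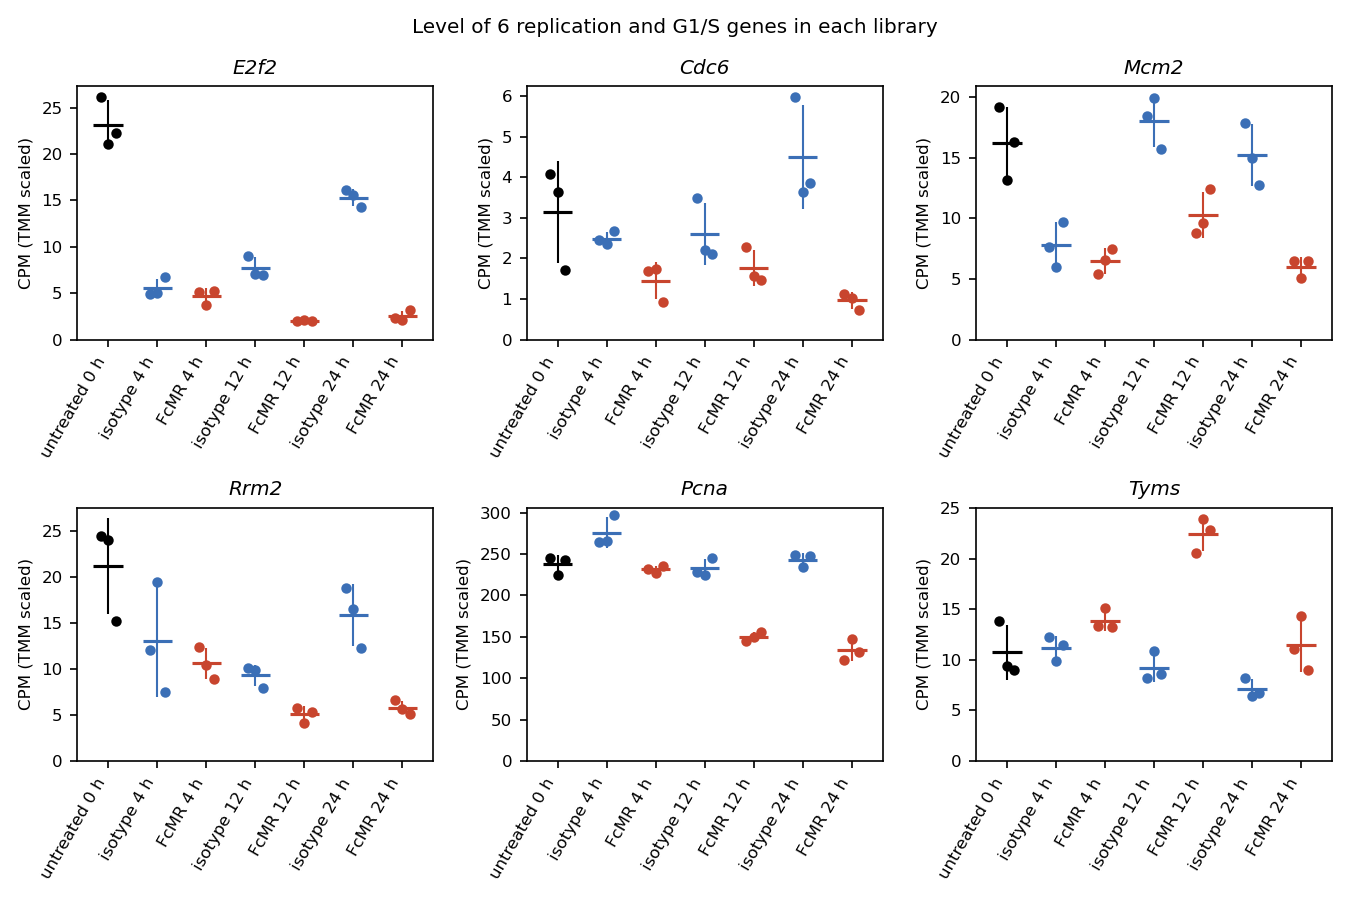
Level of E2f2, Cdc6, Mcm2, Rrm2, Pcna and Tyms in CPM after TMM scaling (y axes, from 0) in each of the 21 libraries, by group (x axes); dots are libraries, horizontal bars group means and vertical bars the SD of 3 libraries. Red FcMR dots lie below blue isotype dots at 24 h in 5 panels and above them for Tyms.

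The calls rested on single libraries to differing degrees. At 24 h the calls of Cdc6, Mcm2, Mcm5, Mcm6, Mcm7, Cdc45, Mcm10, Pcna, Rfc5, Rrm1, Rrm2, Tk1, Chaf1a and E2f2 held when any 1 of the 6 libraries compared was left out. Without isotype 24 h replicate 1, the calls of Orc1, Mcm3, Mcm4, Prim1, Rfc2, Fen1, Uhrf1 and Ccne2 were lost. Without FcMR 24 h replicate 1, Mcm3, Prim1, Rfc2, Fen1, Uhrf1 and Ccne2 were lost, and without FcMR 24 h replicate 2, Mcm3, Rfc2, Fen1, Uhrf1 and Tyms. Over all alternatives the adjusted p reached 0.0649 for Uhrf1, 0.0957 for Tyms and 0.22 for Fen1, and no fold change turned its sign. At 12 h the calls of Mcm2, Cdc45, Pcna, Rfc5, Tyms, Tk1 and E2f2 held in the same way, and at 4 h that of Pole2 alone.

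A joint test for each gene asked whether the effect of FcMR varied with time. Of the 43 members, 9 were called, where 12.0% of all genes were: Orc1, Cdc6, Mcm10, Pcna, Rrm2, Tyms, Tk1, Ccne1 and E2f2. The smallest adjusted p-values were 3.73e-05 for E2f2 and 2.08e-04 for Mcm10. For 8 of the 9 the fold change at 24 h was below that at 4 h, and Tyms peaked at 12 h. Without the replicate block 7 members were called, and leaving out 1 library gave 4 to 9.

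Between 12 h and 24 h the 2 treatments can also be followed by themselves. Under isotype 6 members rose (Cdc6, Mcm6, Rfc5, Rrm1, Rrm2 and E2f2) and none fell, where 18.1% of all genes were called, 7.69% higher and 10.4% lower. E2f2 rose by 1.01 (SE 0.154, edgeR adjusted p 2.70e-04) and Rrm2 by 0.76. Under FcMR 9 members changed, 7 lower and 2 higher, where 25.4% of all genes were called, 11.4% higher and 14% lower. Those that fell were Orc1, Cdc6, Mcm2, Mcm10, Pola2, Tyms and Uhrf1, and those that rose were Pola1 and Rfc5. Rfc5 rose under both, by 0.58 under isotype and 0.54 under FcMR, and its FcMR effect hardly moved (−0.55 and −0.59). Without the replicate block the calls of Cdc6, Mcm6 and Rrm2 under isotype and of Orc1, Cdc6 and Mcm10 under FcMR were lost. Without both libraries out of numbering order the FcMR count was 15 (12 lower). It was 4 or 5 when FcMR 12 h replicate 2 or 3, or FcMR 24 h replicate 1 or 2, was left out. The isotype count was 3 without isotype 12 h replicate 2 or 3, or isotype 24 h replicate 1 or 3.

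**Figure D3:**
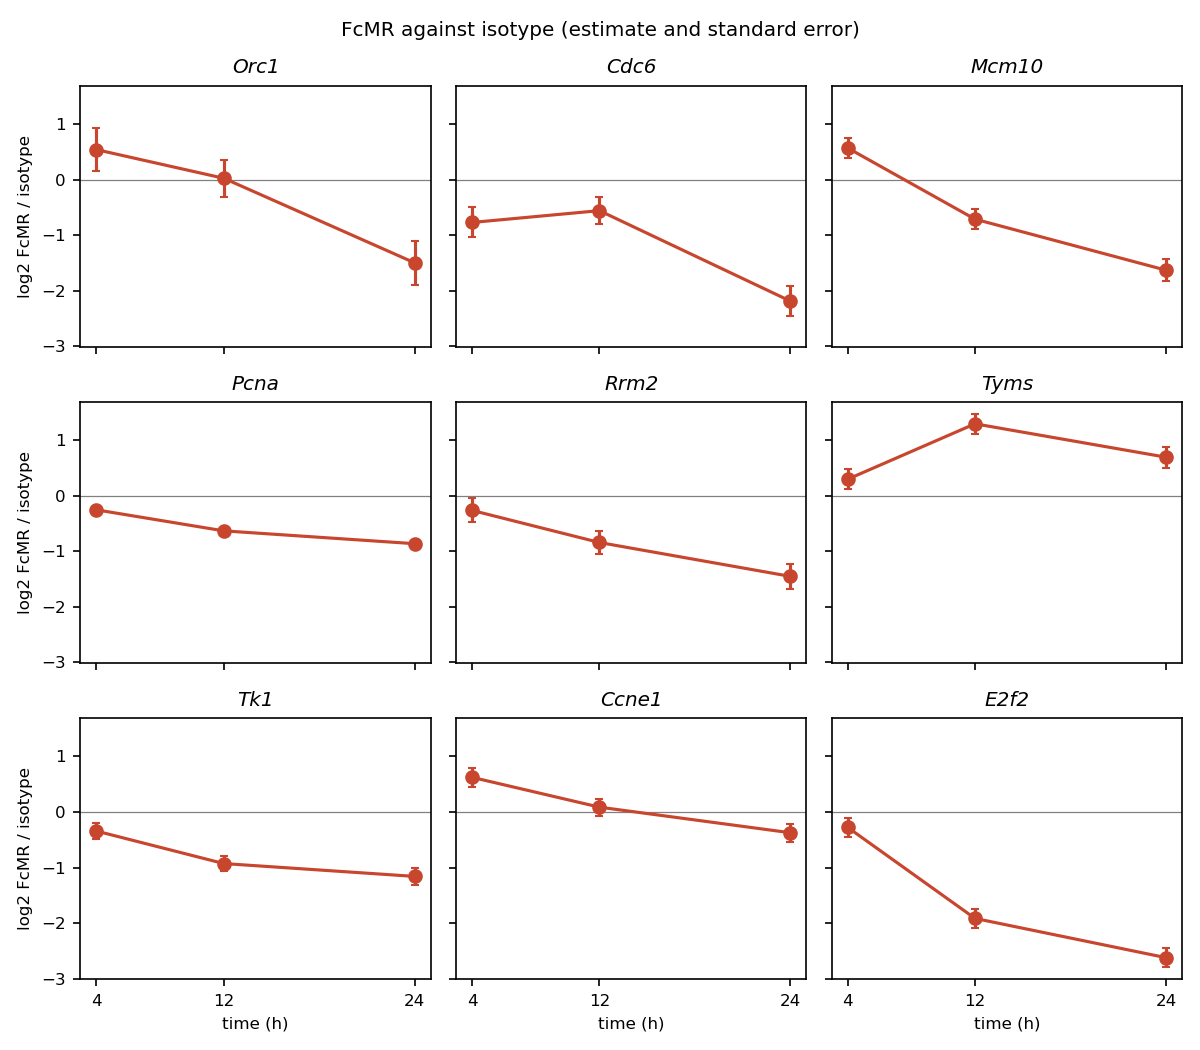
Log2 fold change of FcMR against isotype (y axes) at 4 h, 12 h and 24 h (x axes) for the 9 genes called in the joint test; points are edgeR estimates and bars standard errors. Mcm10 and Ccne1 start above 0 and end below it, E2f2 reaches −2.62, and Tyms stays above 0.

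The isotype control against untreated cells gives the background of control protein and time. At 4 h, 21 members were called, 3 higher and 18 lower, against 37.7% of all genes, 20.8% higher and 16.9% lower. The median of the 43 was −0.53. At 12 h there were 15, 4 higher and 11 lower, against 42.7%, 22.5% and 20.2%, with a median of −0.11. At 24 h there were 13, 7 higher and 6 lower, against 43.4%, 21.8% and 21.6%, with a median of 0.03. At 4 h the count was 12 without untreated 0 h replicate 1 or without isotype 4 h replicate 1. At 12 h and 24 h the share of members called was thus below that of all genes. These 3 comparisons share the untreated libraries, and each shares its isotype libraries with the FcMR comparison of the same time.

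E2f2 had the largest fall here too: from 26.1, 21.1 and 22.3 CPM in untreated cells to 4.88, 5.05 and 6.72 CPM under isotype at 4 h (−2.05, SE 0.164, edgeR adjusted p 7.32e-08). Under isotype it was −1.60 at 12 h and −0.59 at 24 h relative to untreated cells, nearer to the start at each time. Tk1 fell by 1.05, 0.93 and 0.97 at the 3 times. Rrm2 fell by 1.17 at 12 h and was at −0.41 at 24 h, not called. Mcm2 fell by 1.04 at 4 h, from 19.1, 13.2 and 16.3 CPM to 7.61, 5.95 and 9.73 CPM. At 12 h and 24 h its isotype libraries overlapped the untreated ones.

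Rpa2 and Slbp, for which FcMR gave no call, were lower under isotype than in untreated cells at every time. Rpa2, a subunit of the single-strand binding protein, fell by 0.71, 0.83 and 0.81, and Slbp, which binds histone mRNA, by 0.35, 0.76 and 0.79. Slbp was at 46.8, 42.7 and 44.5 CPM in untreated cells, 28.6, 24.9 and 24.1 CPM under isotype at 24 h and 23.2, 30.3 and 19.8 CPM under FcMR. Members that rose under isotype were Rfc3 at all 3 times (0.49, 0.55 and 0.56), Pole2 at 12 h and 24 h (0.67 and 0.77), Mcm6 at both (0.33 and 0.74), and E2f1 at both (0.82 and 0.84). At 4 h alone Pola2 (0.38) and Pcna (0.22) rose. At 24 h Rfc2 (0.86), Ccne1 (0.65) and Lig1 (0.56) rose as well. The rises of Pola2, Pcna and Rfc3 at 4 h were lost in 11, 9 and 8 of 15 alternatives, and that of Mcm6 at 12 h in 9 of 15, the fit without the block among them (adjusted p 0.15). Tyms was the 1 member that fell under isotype at 24 h (−0.57, adjusted p 0.0197) and not before, a call lost without untreated 0 h replicate 1 or without isotype 24 h replicate 2 or 3. Over the same times the summed neutrophil markers went from 1400 to 1620 CPM in untreated libraries to 185 to 221 CPM under isotype at 24 h, and their part in these changes was not tested. Under FcMR at 24 h they summed to 206 to 229 CPM and the granulocyte precursor markers to 0.367 to 0.514 CPM, while 3 of the 7 neutrophil markers were called, 1 higher and 2 lower (median −0.45), and 0 of the 5 granulocyte precursor markers by edgeR, with 1 at an unadjusted p under 0.05 (median −0.97). Their part in the FcMR result was not tested. The dendritic cell markers summed to 701 to 755 CPM under FcMR and 411 to 474 CPM under isotype at 24 h, and the macrophage markers to 25244 to 27094 CPM against 31004 to 35181 CPM. Markers of mast cells or basophils summed to 23.0 to 27.7 CPM and 12.9 to 17.3 CPM in the same groups. Such sums follow the most abundant markers. Of the 6 dendritic cell markers, 3 had fold changes below 0 and 3 above (median −0.30), with 2 called, both higher. Of the 7 macrophage markers 5 were called, 1 higher and 4 lower (median −0.38). Among the 5 mast cell or basophil markers 1 was called, higher (median 0.485), where 21.6% of all genes were called. Their part in the FcMR result was not tested.

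The wider pathway was read from lists of other genes. Of 33 other replication genes, 16 were called at 4 h (2 higher, 14 lower), 5 at 12 h and 7 at 24 h, all of the last 12 lower. These are 48.5%, 15.2% and 21.2% of the list, so that the shares at 12 h and 24 h lay slightly below those of all genes. The medians were −0.37, −0.18 and −0.20. Low early were the kinase subunit Cdc7 (−1.14), the licensing inhibitor Gmnn (−0.89) and the origin subunit Orc2 (−0.76), and of these Orc2 was near 0 at 24 h (0.01). Clspn, a checkpoint mediator at the fork, fell at all 3 times, by 1.03, 0.78 and 2.25, the call at 12 h being lost without the block (adjusted p 0.0851). At 24 h the exonuclease Exo1 (−1.74), the ubiquitin ligase subunit Dtl (−1.52), the firing factor Ticrr (−1.07), the histone chaperone Asf1b (−0.88) and Wdhd1 (−0.64) were lower, Ticrr not without the block (adjusted p 0.0752).

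Among the regulators, the D cyclins moved apart. Ccnd1 was at 8.53, 7.61 and 6.58 CPM under FcMR and 45.3, 44.2 and 30.9 CPM under isotype at 24 h (−2.40, SE 0.167, edgeR adjusted p 3.47e-08), after −1.43 at 12 h and 0.26, not called, at 4 h. Ccnd2 was higher at all 3 times, by 1.60, 2.06 and 1.64, with 727, 775 and 656 CPM under FcMR and 242, 275 and 202 CPM under isotype at 4 h. Myc, a driver of growth and cycle entry, fell at 12 h (−1.76) and 24 h (−1.92). The list of D cyclins, kinases and drivers had 7 of 9 genes called at 24 h (77.8%, against 21.6% of all genes), 6 lower, with Ccnd2 the 1 higher. Without the replicate block 5 of the 9 were called.

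The CDK inhibitors differed in time: Cdkn1a (p21) rose at 4 h (1.02) to 1481, 1710.0 and 1492 CPM and was not called later, and Cdkn2b (p15) rose at 12 h (0.54) and 24 h (0.94). Cdkn2c (p18) fell at both (−1.64 and −1.26). The repressor E2Fs E2f7 (−1.76) and E2f8 (−1.04) were lower at 24 h, E2f8 having been higher at 4 h (0.96), and E2f5 was higher at 12 h (1.24) and 24 h (0.74). Samhd1, which breaks down deoxynucleotides, rose at 4 h (0.67) and fell at 12 h (−0.21) and 24 h (−0.36), the call at 12 h being lost without the replicate block (adjusted p 0.0819).

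**Figure D4:**
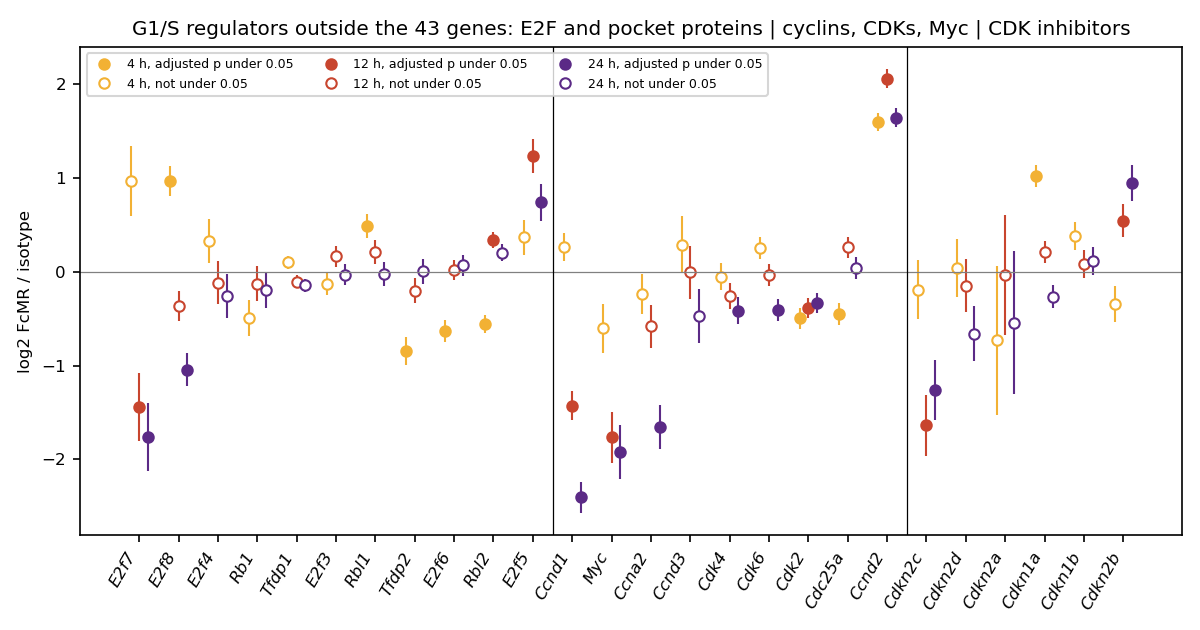
Log2 fold change of FcMR against isotype (y axis) at 4 h (yellow), 12 h (red) and 24 h (purple) for E2F and pocket protein genes, cyclins, kinases and Myc, and CDK inhibitors (x axis); filled points have an edgeR adjusted p under 0.05 and bars are standard errors. Ccnd2 lies above 0 at all 3 times, while Ccnd1, Myc, E2f7 and Cdkn2c lie below 0 at 12 h and 24 h.

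Mitosis genes, which act after S phase, were compared as a list of 20. At 24 h FcMR changed 16 of them, 15 lower and 1 higher (median −1.17). Earlier, 3 were called at 12 h, 1 higher and 2 lower, and 3 at 4 h, 2 higher and 1 lower. Mki67, a proliferation marker, was higher at all 3 times (0.69, 1.37 and 0.57). At 12 h and at 24 h Mki67 was the 1 gene of the list called higher. Without the replicate block 0 mitosis genes were called at 4 h, 1 at 12 h and 14 at 24 h, and Mki67 kept its call at 12 h alone (adjusted p 0.0633, 5.22e-04 and 0.118). Under isotype all 20 differed from untreated cells at 12 h, 19 lower, where 42.7% of all genes were called and 20.2% lower. The median of the 20 was −1.79, against −0.11 for the 43 members. The difference between the lists was not tested.

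Proliferation genes of these libraries were known to follow the replicate number, which was therefore kept in the model. As a mean log2 level relative to untreated cells, replicate 3 held the lowest value of the 43 members in 5 of 7 groups and replicate 1 the highest in 5 of 7. The number took 33.5% of the variance within groups. For the 20 mitosis genes these figures were 7 of 7, 6 of 7 and 81.2%. Per gene the median share was 19.8% for the members and 18.2% for all genes tested. No member was called for the replicate number by edgeR (0 of 43, and 0.0149% of all genes), with 8 at an unadjusted p under 0.05, where 9.46% of all genes were. DESeq2 called 1 member, limma 0 and edgeR after GC correction 2. Mcm10 had the largest share of its variance within groups taken by the number, 66.9%, followed by Orc1 with 61.9%.

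The mean level summarises the course. The untreated libraries scored 0.22, −0.03 and −0.19, the isotype libraries −0.06, −0.18 and −0.22 at 12 h and 0.23, 0.01 and −0.14 at 24 h, and the FcMR libraries −0.59, −0.55 and −0.47 at 12 h and −0.61, −0.68 and −0.68 at 24 h. At 4 h the isotype libraries scored −0.52, −0.47 and −0.41 and the FcMR libraries −0.53, −0.57 and −0.72. The module was thus low in both treatments at 4 h, and at 24 h the isotype libraries overlapped the untreated range while the FcMR libraries did not.

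**Figure D5:**
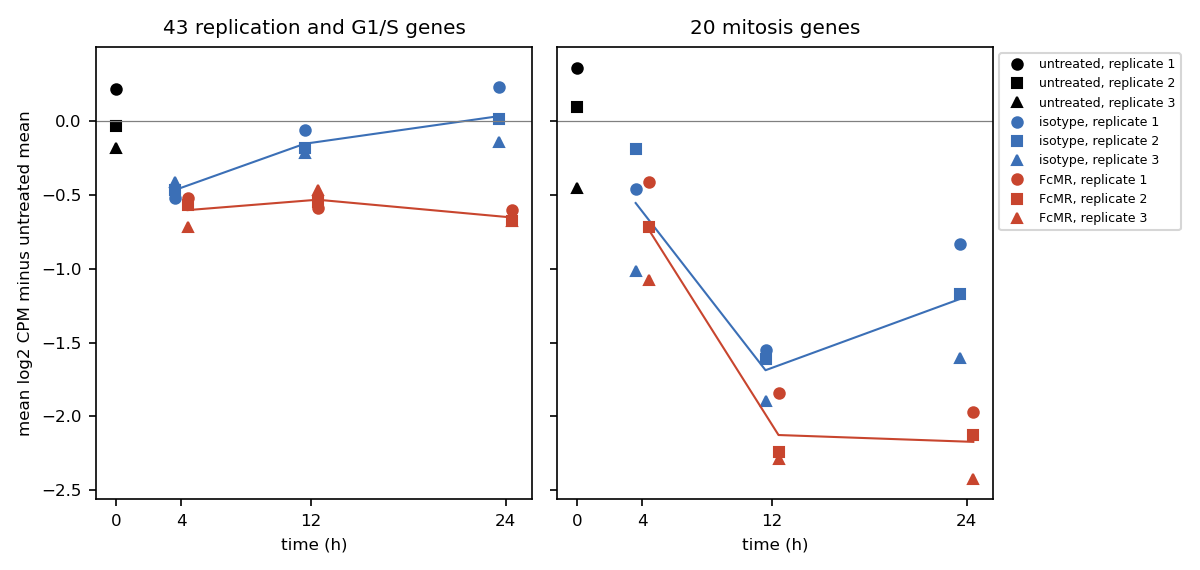
Mean log2 CPM of the 43 replication and G1/S genes (left) and of 20 mitosis genes (right), minus the untreated mean (y axis), against time in hours (x axis); symbols are libraries with their replicate number and lines join group means. At 24 h the FcMR libraries sit between −0.68 and −0.61 on the left, all below the isotype libraries at −0.14 to 0.23.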

How the data were processed

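RNA of 21 libraries, made with a TruSeq RNA kit, was read single-end, per the labels' protocols. CASAVA 1.8.2, kallisto 0.44.0, DESeq2 and the builds mm10 and GRCm38 are named in the submitters' processing notes, with no role or order. The values used are estimated counts per gene that the authors deposited as whole numbers; the authors' normalized values were not used. Estimated counts depend on the annotation and on how reads shared by overlapping genes were divided; 22 of the 43 members overlap another annotated gene. The 43 symbols were matched by Ensembl gene ID in GENCODE M21 (GRCm38).

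All 21 libraries entered 1 edgeR 4.0.16 quasi-likelihood fit (R 4.3.3) with group and replicate number as terms, TMM scaling and filterByExpr at a minimum of 10 counts, leaving 13468 genes. Calls are at an adjusted p (Benjamini-Hochberg, over those genes) under 0.05. Levels are CPM after TMM scaling. Values in every library are given for members of each role, and the other members by counts and ranges. The module, the further lists and the markers were chosen with earlier results of these data known, so no count here is independent support for a pattern seen before. No pair of replicates agreed within sampling noise (lowest chi-square over degrees of freedom 3.03). The replicate number is in the main model because the study's replicates were known to differ by it, although the numbers did not pair the libraries by correlation (mean of same-numbered pairs −0.071 to 0.106). Alternatives were RLE scaling, other filters, DESeq2 1.42.0, limma-voom 3.58.1, GC correction, no replicate block, the libraries of the compared groups alone, and leaving out libraries. The scripts were tested on simulated data. Promoter windows are from RefSeq.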

Additional observations from a re-analysis of the deposited data

Results flagged for a closer look

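For 9 of the 43 genes the FcMR effect against isotype differed over 4 h, 12 h and 24 h in edgeR's joint test. That test set the effects at 12 h and at 24 h against the effect at 4 h. The adjusted p was 3.73e-05 for E2f2, 2.08e-04 for Mcm10, 0.00317 for Pcna, 0.0129 for Cdc6, 0.0271 for Ccne1, 0.0358 for Tk1, 0.0385 for Tyms, 0.0438 for Orc1 and 0.0447 for Rrm2. Without the replicate block Orc1 (0.0977), Cdc6 (0.0508) and Rrm2 (0.128) were no longer called. For Cdc6 the step from 12 h to 24 h also differed by itself, at an edgeR adjusted p of 0.0235, a call lost without the replicate block. No sample could be judged as standing apart within a group by a range test, since every group holds 3 libraries.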

How the results depend on the processing

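Of 90 called member results, recomputed 1349 times in all, 1145 kept their call and their direction, 204 lost the call and 0 reversed. At 24 h, 12 of the 23 FcMR calls held under every alternative, at 12 h 5 of 13 and at 4 h 0 of 5. The replicate numbers did not pair the libraries by correlation. The fit without the replicate block called 3 members for FcMR at 4 h and 0 for the change of its effect from 12 h to 24 h, and 12 and 23 for FcMR at 12 h and 24 h. With no expression filter the counts were 3 at 4 h and 0 for the change. DESeq2 called 10 members for isotype at 24 h against 12 h, 2 for the change and 1 for the replicate number. GC correction with the replicate block gave 10 for isotype and 14 for FcMR at 24 h against 12 h, 3 for the change, 19 for the joint test and 2 for the replicate number. With only the libraries of the compared groups, still with the replicate block, the counts for FcMR were 0 at 4 h (115 of all genes), 8 at 12 h and 13 at 24 h, 5 for isotype against untreated at 4 h, 20 for isotype and 0 for FcMR at 24 h against 12 h. Such fits hold fewer libraries. Without both libraries out of numbering order 15 members were called for FcMR at 24 h against 12 h. The cause of the other shifts was not tested. Leaving out 1 library at a time gave 1 to 5 calls for FcMR at 4 h, 9 to 13 at 12 h and 15 to 22 at 24 h. For isotype against untreated it gave 12 to 18, 13 to 17 and 11 to 12. It gave 3 to 4 for isotype and 4 to 8 for FcMR at 24 h against 12 h, 0 to 1 for the change, 4 to 9 for the joint test and 0 to 0 for the replicate number. With RLE scaling 63.3% of all calls for FcMR at 4 h were higher, against 49.2% with TMM, and 53.6% against 42.5% for isotype at 24 h against 12 h. With no filter the median of all genes moved by over 0.1 for isotype against untreated (−0.15 against −0.01) and for FcMR against isotype (0.07 against −0.05), both at 4 h. No fit without the block or on fewer groups exists for the replicate number itself. Depth limits the low members: 3 counts are up to 0.542 CPM, and Orc1 reached 0.122 CPM.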
